A study of Arabidopsis thaliana with 12 samples.

Results

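The XTH and expansin genes encode proteins that act on the plant cell wall, and their transcripts were followed in seedlings of 4 Arabidopsis genotypes. The members are the probe sets that name exactly 1 gene whose symbol begins with XTH, EXPA, EXPB, EXLA or EXLB followed by a digit. There are 27 of them among 22746 probe sets tested, 9 for XTH genes and 18 for expansins. The expansins are 10 of the EXPA, 4 of the EXPB, 3 of the EXLA and 1 of the EXLB group. A RefSeq gene table holds 30 XTH and 34 expansin genes under the same stems, and those that no probe set names alone are not analysed here. Some of them may be measured by the 8730 probe sets that are unnamed here, so the 27 are the members found by name. Another 2 probe sets name more than 1 gene with an expansin among them and were left out.

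RNA of 12 samples was measured on ATH1 expression arrays, 3 arrays per genotype. AB, SIZ1 and SAB are knock-out lines with T-DNA insertions, and COL is the wild type, of which the accession is Columbia. All were untreated seedlings grown at 23 °C under 100 µE of light on Murashige and Skoog medium. For AB 1 and AB 2 an age of 10 days is recorded, and for the other 10 samples a harvest date instead. What AB and SAB stand for is not said, nor how many insertion lines stand behind a name. Separate cultures for the samples of a genotype are not stated either, so a p-value here reflects only sample-to-sample spread, which may be technical. SIZ1 is the name of a ligase that attaches the protein modifier SUMO to its targets. The series asked how ubiquitin-like proteases shape transcription.

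XTH enzymes cut the hemicellulose xyloglucan and join the cut end to another chain or to water, and so remodel the tethers between cellulose fibrils. Expansins loosen the wall without cutting it, above all at acid pH, and let cells enlarge. EXPA proteins are the alpha-expansins and EXPB proteins the beta-expansins, while for the expansin-like groups EXLA and EXLB no loosening activity is established. Members of both families are switched on in different organs, and EXPA7 and EXPA18 are known from root hairs.

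Values are deposited log2 expression values (GCRMA), which ran from 2.02 to 13.21 with a median of 3.51 over the means of all probe sets. Differences are log2 differences from a limma fit to all 12 arrays, SE is its moderated standard error, and "called" means an adjusted p (Benjamini-Hochberg, over all probe sets) under 0.05. The labels were checked first. The brighter SIZ1 probe set stood at 2.40 in SIZ1 and 2.52 in SAB, against 5.26 in AB and 5.50 in COL. The dimmer SIZ1 probe set went the other way, with log2 differences from COL of 1.31 in SIZ1 and 0.90 in SAB, both called higher. Which of them lies in the disrupted stretch is not known here. The SUMO protease gene AT1G09730 stood at 3.17 in AB and 3.23 in SAB, against 4.29 in SIZ1 and 4.76 in COL. Green-tissue markers and PYK10, a root beta-glucosidase, were bright, which matches whole seedlings. In bulk tissue, fewer cells of a type and less RNA per cell cannot be told apart.

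Of the 27 members, 10 had a mean above the median of all probe sets, 4 XTH genes (XTH16, XTH18, XTH19 and XTH32) and 6 expansins (EXLA1, EXPA4, EXPA8, EXPA9, EXPA15 and EXPB3). XTH20 lay just below it, with a mean of 3.43, because it was near the floor in AB and COL and above the median in every SIZ1 and SAB array. The other 16 members had means from 2.17 to 2.73. These are XTH21, XTH26, XTH29 and XTH33, and EXPA7, EXPA16, EXPA18, EXPA20, EXPA21, EXPA24, EXPB1, EXPB2, EXPB5, EXLA2, EXLA3 and EXLB1. Their genotype means differed from each other by at most 0.26, 10 of them by under 0.1, and none was called in any comparison. GCRMA draws dim probe sets to a floor, so a change of these transcripts would be understated. The root hair expansin genes EXPA7 and EXPA18 are among them, with means of 2.56 and 2.73. Within the dim set single arrays stood out: EXLA2 read 3.11 in SAB 1 and between 2.38 and 2.64 elsewhere. EXLB1 read 3.11 and 2.99 in SIZ1 1 and SIZ1 2, but 2.50 in SIZ1 3.

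**Figure D1:**
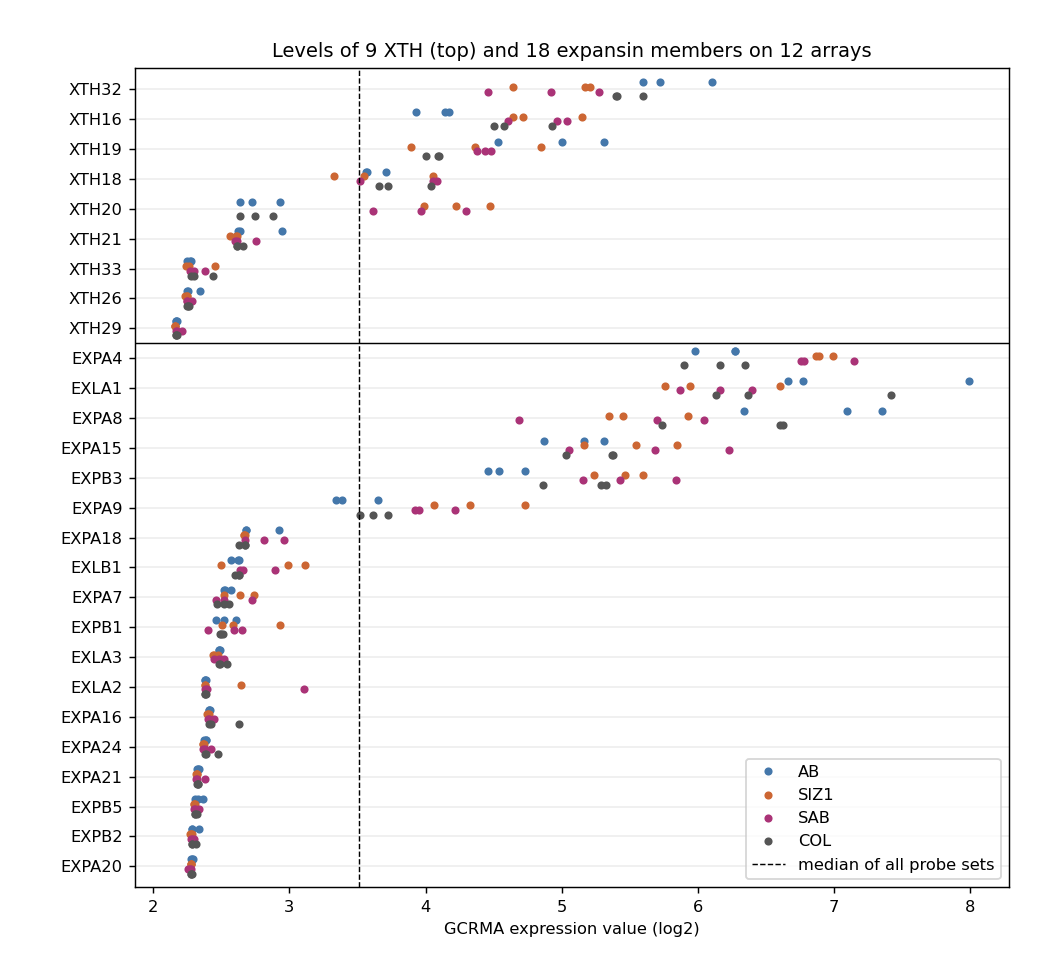
Log2 expression value (x axis) of each of the 27 members on the 12 arrays, with XTH genes in the upper and expansins in the lower block and 1 point per array coloured by genotype. The dashed line is the median of all probe sets, 3.51. XTH20 is the gene whose arrays lie on both sides of it by genotype, and 16 members lie left of it on every array. Brightness differs between probe sets, so levels are not compared between genes.

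SIZ1 and SAB had higher XTH20 and EXPA4 than COL. In SIZ1 against COL, 1 of 9 XTH members rose (XTH20) and 2 of 18 expansins rose (EXPA4 and EXPA9), and no member fell. Over all probe sets 3.22% were called in this comparison, 1.93% higher and 1.29% lower. In SAB against COL, 1 XTH member (XTH20) and 1 expansin (EXPA4) rose and none fell, where 3.21% of all probe sets were called, 1.66% higher and 1.56% lower. Both comparisons use the same COL arrays. By values that did not overlap, 1 XTH member was higher and 3 were lower in SIZ1 than in COL, and 2 expansins were higher and 5 lower. Apart from XTH32 (-0.46), the lower ones were all dim members near the floor, with differences from -0.052 to -0.007. Over all probe sets, values did not overlap for 34.1% (8.1% higher and 26% lower). In SAB 2 XTH members and 3 expansins were higher than COL without overlap, and 1 XTH member was lower, where 18.2% of all probe sets did not overlap (8.33% higher and 9.83% lower).

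XTH20 is a relative of XTH18 and XTH19, and XTH19 and XTH20 are known to be needed for the rejoining of cut inflorescence stems. It read 4.47, 4.23 and 3.99 in SIZ1 1 to 3 and 4.30, 3.97 and 3.61 in SAB, against 2.64, 2.73 and 2.93 in AB and 2.64, 2.88 and 2.75 in COL. All 6 SIZ1 and SAB arrays were above all 6 of the others. The gene rose by 1.48 in SIZ1 (2.78-fold, SE 0.18, limma adjusted p = 0.00358) and by 1.21 in SAB (2.31-fold, SE 0.18, limma adjusted p = 0.00849). Both are measured against COL values near the floor, so these folds may understate the change. SAB differed from SIZ1 by -0.27, with a 95% interval of -0.67 to 0.12. AB differed from COL by 0.01 (-0.38 to 0.40).

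The alpha-expansin EXPA4 read 6.99, 6.89 and 6.87 in SIZ1 and 7.15, 6.78 and 6.76 in SAB, against 5.98, 6.27 and 6.28 in AB and 5.90, 6.35 and 6.16 in COL. Again the arrays of SIZ1 and SAB lay above all others. It rose by 0.78 in SIZ1 (1.72-fold, SE 0.14, limma adjusted p = 0.0177) and by 0.76 in SAB (1.69-fold, limma adjusted p = 0.0217). The first call ended without SIZ1 1, SIZ1 2 or COL 1 (limma adjusted p up to 0.0659). The second ended without SAB 1 or COL 1 (up to 0.0694). Both calls also ended in the fit to the compared genotypes alone (limma adjusted p = 0.0919 and 0.110).

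EXPA9, another alpha-expansin, read 4.33, 4.73 and 4.06 in SIZ1 and 3.92, 4.22 and 3.95 in SAB, against 3.39, 3.65 and 3.34 in AB and 3.72, 3.52 and 3.61 in COL. Its SIZ1 and SAB arrays all lay above its AB and COL arrays. It rose by 0.76 in SIZ1 (1.69-fold, SE 0.16, limma adjusted p = 0.0388). In SAB it differed from COL by 0.41 and was not called (limma adjusted p = 0.231), and SAB minus SIZ1 was -0.35 with an interval of -0.71 to 0.02. The call in SIZ1 ended with quantile normalization and in the fit to SIZ1 and COL alone (limma adjusted p = 0.0544 and 0.183). It also ended without AB 1, AB 3, SIZ1 1, SIZ1 2, SAB 1, SAB 3 or any COL array (limma adjusted p up to 0.109).

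**Figure D2:**
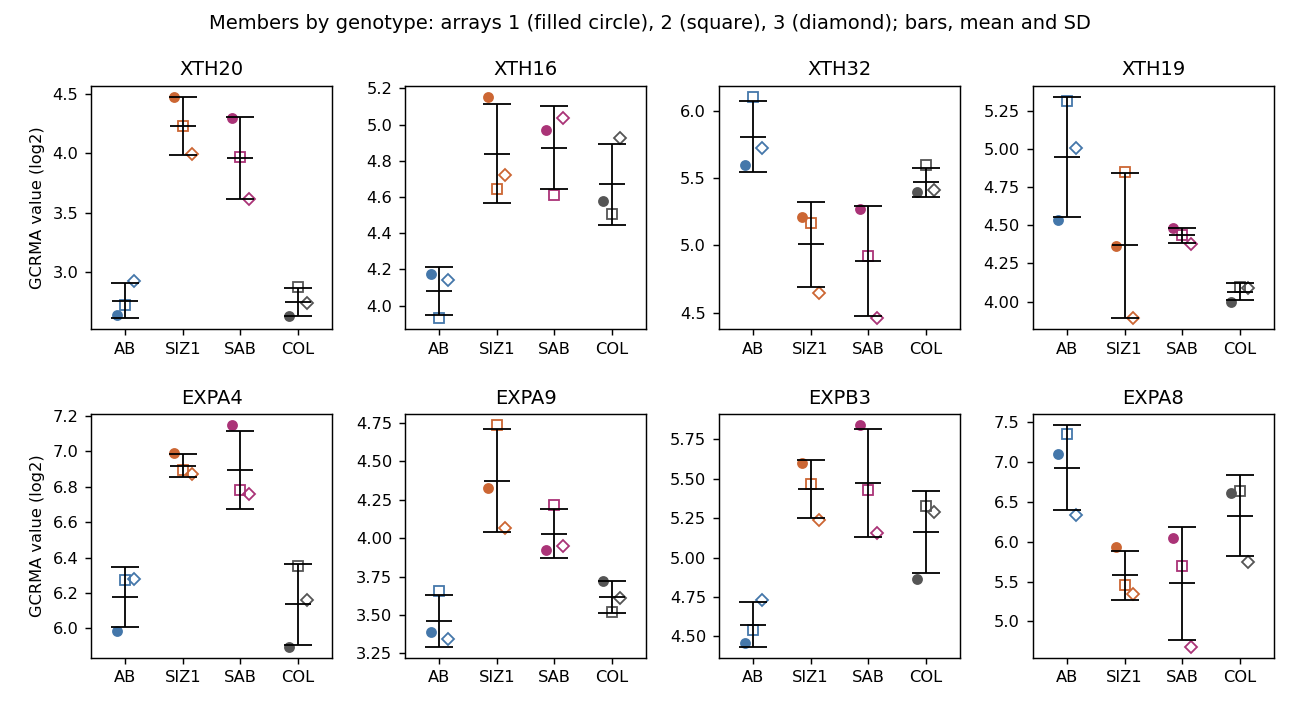
Log2 expression values (y axis, own range in each panel, not starting at 0) of 8 members in AB, SIZ1, SAB and COL. Points are single arrays, marked by replicate number, and bars show the mean and SD of 3 arrays. XTH20, EXPA4 and EXPA9 are higher in all SIZ1 and SAB arrays than in all AB and COL arrays, and XTH32 is lower in all of them.

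SAB was low in SIZ1 signal relative to AB, as the SIZ1 line was relative to COL, and these pairs share no array. That SAB combines the AB and SIZ1 lesions is not stated in the labels and is taken here only from the low signal of both transcripts. There 2 XTH members (XTH16 and XTH20) and 2 expansins (EXPA4 and EXPB3) rose and none fell, where 4.43% of all probe sets were called, 2.35% higher and 2.08% lower. XTH20 rose by 1.19 (SE 0.18, limma adjusted p = 0.00721) and EXPA4 by 0.72 (SE 0.14, limma adjusted p = 0.0224), beside 1.48 and 0.78 in SIZ1 against COL. Without overlap, 2 XTH members and 4 expansins were higher in SAB than in AB and 2 and 3 were lower. Over all probe sets this was 20.9% (10.5% higher and 10.3% lower). The call of EXPA4 ended without AB 1, AB 2 or SAB 1, and in the fit to SAB and AB alone (limma adjusted p up to 0.0739).

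XTH16 read 4.97, 4.61 and 5.04 in SAB and 4.18, 3.93 and 4.14 in AB, with 5.15, 4.65 and 4.72 in SIZ1 and 4.58, 4.51 and 4.93 in COL. SAB lay above AB on every array, while SIZ1 and COL overlapped. The difference SAB minus AB was 0.79 (1.73-fold, SE 0.17, limma adjusted p = 0.0325), and SIZ1 minus COL was 0.17 and not called. The beta-expansin EXPB3 also had SAB above AB on every array, with 5.84, 5.43 and 5.16 in SAB and 4.46, 4.54 and 4.73 in AB. It read 5.60, 5.46 and 5.24 in SIZ1 and 4.86, 5.33 and 5.29 in COL. SAB minus AB was 0.90 (1.86-fold, SE 0.19, limma adjusted p = 0.0288), and SIZ1 minus COL was 0.27 and not called. For both genes AB was the lowest genotype on every array. The call of XTH16 ended without any AB array, SAB 1 or SAB 3 (limma adjusted p up to 0.119). For EXPB3 it ended without AB 1, AB 2, SAB 1 or SAB 2, and in the fit to SAB and AB alone (up to 0.0962).

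With the replicate number as a block, 5 expansins and 3 XTH members were called in SAB against AB, where 6.82% of all probe sets were called in the same fit (3.4% higher and 3.42% lower). EXPA9 (0.57, limma adjusted p = 0.0453) rose as well, and XTH32 (-0.93, 0.0262), EXPA8 (-1.45, 0.00794) and EXLA1 (-1.0, 0.0269) fell. Without the block their limma adjusted p-values were 0.0873, 0.0517, 0.0818 and 0.265. The EXLA1 difference rests in part on AB 3 and was -0.57 without that array. Leaving out the AB arrays labelled with an age, so that AB 3 stood alone for AB, gave -1.85 for EXLA1 and -0.86 for EXPA8. AB 3 was the highest AB array for EXLA1 and the lowest for EXPA8. Apart from the block, no setting called EXLA1 in SAB against AB, and only the brighter probe sets alone called EXPA8 (limma adjusted p = 0.0222).

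Across the 27 members, SIZ1 minus COL and SAB minus AB had the same sign for 20 members (74.1%), with r = 0.81 and Spearman's rho = 0.68 over genes, which are not independent replicates. Over all probe sets the share was 57.3% and r = 0.71, and over those above the median level it was 72.8% and r = 0.75. Of the 10 members above that level, 8 had the same sign. The exceptions were XTH18, at -0.16 and 0.27, and XTH19, at 0.30 and -0.52. The corresponding differences for the AB line, AB minus COL and SAB minus SIZ1, had the same sign for 12 of 27 members (44.4%), with r = -0.07, against 52.9% and r = 0.08 over all probe sets. Same-numbered arrays of all genotypes deviate together, so these differences share the number.

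**Figure D3:**
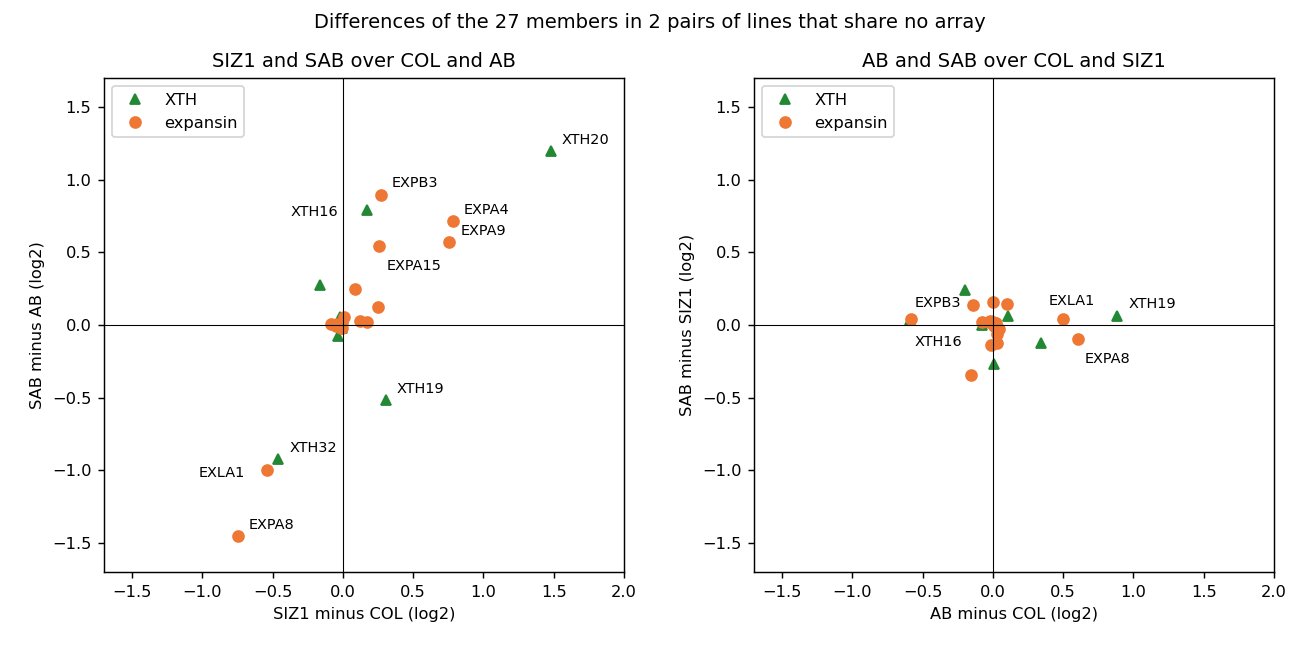
Log2 differences of the 27 members in pairs of comparisons that share no array, with triangles for XTH genes and circles for expansins. Left, SIZ1 minus COL (x axis) against SAB minus AB (y axis), where XTH20, EXPA4 and EXPA9 lie at the upper right and EXPA8, EXLA1 and XTH32 at the lower left. Right, AB minus COL (x axis) against SAB minus SIZ1 (y axis), where the members spread along the x axis from -0.59 to 0.88 and lie between -0.35 and 0.24 on the y axis.

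SIZ1 and SAB were then set against COL and AB together, as the mean of SIZ1 minus COL and SAB minus AB, 6 arrays against 6. In this pooled comparison 3 of 9 XTH members were called (33.3%), with XTH16 and XTH20 higher and XTH32 lower. Of the 18 expansins 4 were called (22.2%), with EXPA4, EXPA9 and EXPB3 higher and EXPA8 lower. Over all probe sets 10.7% were called, 5.67% higher and 5.04% lower. Called probe sets are mostly bright ones: 19.5% were called among probe sets above the median level and 1.95% below it. Among the members above that level, 2 of 4 XTH genes and 4 of 6 expansins were called. Both families thus held members that rose and members that fell. Their median differences were 0.004 for XTH and 0.02 for expansins, against -0.006 for all probe sets, and most members behind these medians are dim. Above the median level the medians were -0.03 for the 4 XTH members and 0.49 for the 6 expansins, against -0.02 for all probe sets of that level. These 4 leave out XTH20, which rose by 1.34, and the 6 expansins ran from -1.10 to 0.75, so their median describes no common rise.

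The rises of the pooled comparison were 1.34 for XTH20 (2.52-fold as measured against values near the floor, SE 0.12, limma adjusted p = 0.000331), 0.75 for EXPA4 (1.68-fold, SE 0.10, limma adjusted p = 0.00178) and 0.66 for EXPA9 (1.58-fold, SE 0.11, limma adjusted p = 0.00689). These 3 were called under every alternative run in which they were tested, without any 1 array included, with limma adjusted p up to 0.00921, 0.0249 and 0.0413. EXPB3 rose by 0.59 (SE 0.13, limma adjusted p = 0.0216) and XTH16 by 0.48 (SE 0.12, limma adjusted p = 0.0329). The call of EXPB3 ended without AB 1, AB 2, SIZ1 1 or SIZ1 2 (up to 0.0534). For XTH16 it ended without any AB array, SIZ1 1, SAB 1, SAB 3, COL 1 or COL 2 (up to 0.0783).

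The falls were XTH32 and EXPA8. XTH32 belongs to a subgroup of XTH proteins in which hydrolase activity is known from its close relative XTH31. It read 5.21, 5.17 and 4.65 in SIZ1 and 5.27, 4.92 and 4.46 in SAB, against 5.60, 6.11 and 5.72 in AB and 5.40, 5.60 and 5.41 in COL. The arrays of SIZ1 and SAB lay below all others. XTH32 fell by 0.69 (1.62-fold, SE 0.16, limma adjusted p = 0.0233), a call that ended without AB 2 or COL 2 (up to 0.0537). Neither SIZ1 nor SAB alone was called against COL, at -0.46 and -0.59 (limma adjusted p = 0.371 and 0.221).

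The alpha-expansin EXPA8 read 5.93, 5.45 and 5.35 in SIZ1 and 6.05, 5.70 and 4.68 in SAB, against 7.10, 7.35 and 6.34 in AB and 6.61, 6.63 and 5.74 in COL. COL 3 lay below 2 of these 6 SIZ1 and SAB values. EXPA8 fell by 1.10 (2.14-fold, SE 0.29, limma adjusted p = 0.0388), and by the same amount with a limma adjusted p of 0.00291 with the replicate number as a block. Without the block the call ended without AB 1, AB 2, SAB 2, SAB 3, COL 1, COL 2 or any SIZ1 array (up to 0.0901).

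In the pooled comparison the arrays of the 2 sides did not overlap for XTH20, EXPA4 and EXPA9, which were higher, and for XTH32, which was lower. Over all probe sets this held for 5.98% (3.27% higher and 2.71% lower). Of the remaining bright members, EXLA1 differed by -0.77 (interval -1.45 to -0.09, limma adjusted p = 0.157), and was called with the replicate number as a block (limma adjusted p = 0.0114), where 13.5% of all probe sets were called (6.8% higher and 6.67% lower). Its difference was -1.20 without the AB arrays labelled with an age, which left AB 3, its highest AB value, as the only AB array. EXPA15 differed by 0.40 (-0.05 to 0.85), XTH18 by 0.05 (-0.27 to 0.38) and XTH19 by -0.11 (-0.48 to 0.27), and none was called.

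**Figure D4:**
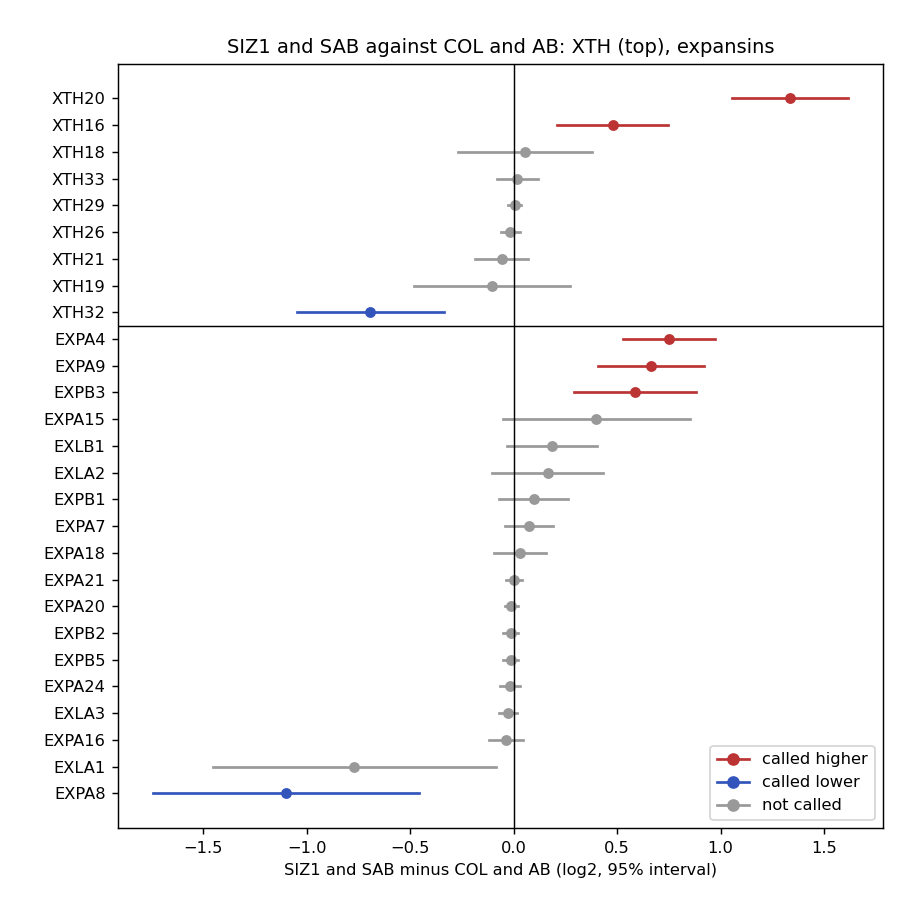
Log2 difference of SIZ1 and SAB against COL and AB (x axis) for each of the 27 members, XTH genes above and expansins below the line, with the 95% interval of the limma fit. Red marks members called higher (XTH20, XTH16, EXPA4, EXPA9 and EXPB3), blue those called lower (XTH32 and EXPA8) and grey those not called.

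Other values moved with this comparison. Spiked-in poly-A controls (27 probe sets) averaged 3.87 in SIZ1 and 4.06 in SAB, against 4.43 in AB and 4.24 in COL. Single arrays overlapped: SAB 3 read 4.25, above AB 2 and COL 2 (each 4.16) and COL 1 (4.08). The recorded RNA amount set only SAB apart, at 871 ng on average, against 727 in SIZ1, 739 in AB and 751 in COL. The summed level of the 3 measured green-tissue markers, on the log2 scale, ran from 12.54 to 12.57 in SIZ1 and 12.53 to 12.64 in SAB, against 12.65 to 12.86 in AB and 12.82 to 12.99 in COL. Of these, LHCB4.2 (-0.68) and LHCB4.1 (-0.13) fell and LHCB4.3 (0.20) was not called. The root marker PYK10, the only one of the 8 root loci measured under its own name, differed by 0.07 and was not called. The part of labelling or of tissue make-up in the members' differences was not tested.

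AB against COL was compared to see which members change in that line. No member was called by limma, where 0.0615% of all probe sets were (0.0176% higher and 0.044% lower). At an unadjusted p under 0.05 there were 2 XTH members and 1 expansin, 11.1% of the members, against 1763 or 7.75% of all probe sets. XTH19 read 4.53, 5.31 and 5.0 in AB, against 4.0, 4.10 and 4.09 in COL, with 4.36, 4.85 and 3.89 in SIZ1 and 4.48, 4.44 and 4.38 in SAB. All AB arrays were above all COL arrays, by 0.88 on average (1.85-fold, interval 0.35 to 1.42, limma adjusted p = 0.278). XTH16 and EXPB3 each differed by -0.59, and their AB arrays all lay below those of COL (limma adjusted p = 0.318 and 0.383). Over all members, 3 were higher and 3 lower in AB with no overlap with COL, where this held for 11.1% of all probe sets (4.69% higher and 6.43% lower). XTH18, which lies next to XTH19 in the genome, read 3.56, 3.57 and 3.71 in AB, against 3.66, 3.73 and 4.04 in COL. Its difference was -0.20 (-0.66 to 0.26), was not called and was not tested against that of XTH19.

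In SAB against SIZ1 limma called 0 members and 0% of all probe sets, and no member reached an unadjusted p under 0.05, against 981 of all probe sets. The differences ran from -0.27 to 0.24 for XTH members and from -0.35 to 0.16 for expansins. XTH members and expansins each had 1 gene higher in SAB without overlap and none lower, where this held for 10.5% of all probe sets (6.76% higher and 3.69% lower). Whether SAB differs from an addition of the SIZ1 and AB differences was tested as an interaction, and it too was called for 0 members and 0% of all probe sets. XTH16 (0.62, interval 0.08 to 1.16), EXPB3 (0.62, 0.03 to 1.21) and XTH19 (-0.82, -1.57 to -0.07) had an unadjusted p under 0.05, as did 1218 of all probe sets. Their limma adjusted p-values were 0.867 to 0.894.

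For 2 expansins the arrays numbered 3 were the highest or the lowest in every genotype. EXLA1 read 7.99 in AB 3, 6.60 in SIZ1 3, 6.40 in SAB 3 and 7.42 in COL 3. Each was the highest of its genotype, whose other arrays read 6.77 and 6.67 in AB, 5.94 and 5.76 in SIZ1, 5.87 and 6.17 in SAB, and 6.37 and 6.14 in COL. EXPA8 was lowest in the array numbered 3 in all 4 genotypes. No other member was highest, or lowest, at number 3 in all 4. At number 2, XTH16 was the lowest in all 4 genotypes (3.93 in AB, 4.65 in SIZ1, 4.61 in SAB and 4.51 in COL). The dim XTH33 was lowest at number 2 and the dim EXPA21 at number 1 in all 4. SDs within a genotype ran from 0.27 to 0.74 for EXLA1 and 0.31 to 0.71 for EXPA8, against 0.06 to 0.23 for EXPA4.

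Within each number, the pooled difference can be read from 1 array per genotype. For EXPA8 it was -0.86, -1.41 and -1.02 for numbers 1, 2 and 3, and for EXLA1 -0.67, -0.44 and -1.21. Both were negative in every number. XTH20 gave 1.75, 1.29 and 0.97, EXPA4 gave 1.13, 0.52 and 0.59, and EXPA9 gave 0.57, 0.89 and 0.53. XTH32 gave -0.26, -0.81 and -1.01. XTH16 gave 0.68, 0.41 and 0.34 and EXPB3 1.06, 0.51 and 0.19. The pooled difference of each called member kept its sign in all 3 numbers. That is no separate test, since the calls rest on the same arrays. At number 3, however, SIZ1 minus COL alone was -0.21 for XTH16 and -0.05 for EXPB3, beside 0.89 and 0.43 for SAB minus AB. The pooled difference of EXPA15 did not keep its sign, with 1.09, 0.35 and -0.23. Its arrays numbered 1 read 5.85 in SIZ1 and 6.23 in SAB, against 4.87 in AB and 5.03 in COL, whereas those numbered 3 read 5.16 and 5.05 in SIZ1 and SAB, against 5.31 and 5.37 in AB and COL.

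**Figure D5:**
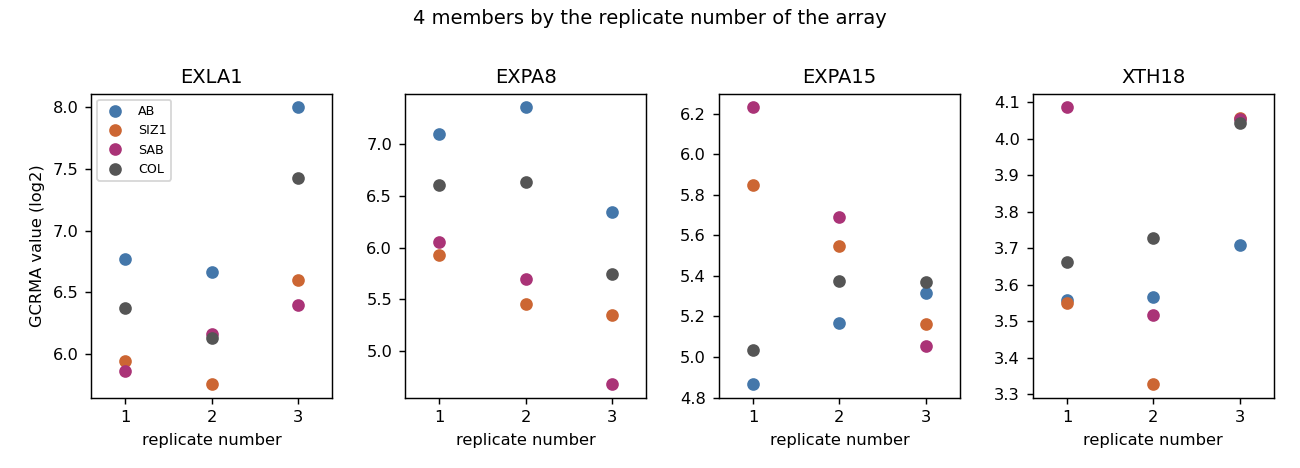
Log2 expression values (y axis, own range in each panel, not starting at 0) of EXLA1, EXPA8, EXPA15 and XTH18 by the replicate number of the array (x axis), with 1 point per genotype. EXLA1 is highest and EXPA8 lowest at number 3 in all 4 genotypes, and EXPA15 shows SIZ1 and SAB above AB and COL at number 1 and below them at number 3.

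Other genes of wall building and growth were read from lists by symbol. A list drawn up by symbol for xylan and xyloglucan decoration or synthesis held 24 measured genes. Most are of the TBL family of wall polysaccharide acetyltransferases, and their substrates were not checked gene by gene. Of these 24, 2 rose (TBL36 by 0.63 and TBL39 by 0.51) and 0 fell in the pooled comparison, with a median of 0.02. Of 7 synthases of the cellulose synthase-like families 1 fell, CSLC04, which makes the glucan backbone of xyloglucan (-0.45, SE 0.12, limma adjusted p = 0.0411). CSLC04 stood at 4.70 in SIZ1 and 4.74 in SAB, against 5.56 in AB and 4.78 in COL: it was called in SAB against AB (-0.81) and not in SIZ1 against COL. Of 11 auxin response genes 1 fell, IAA18 (-0.40, limma adjusted p = 0.0449), and of 2 pectin genes none was called. These counts stand beside 10.7% of all probe sets called in the pooled comparison. In AB against COL 0 genes of these 4 lists were called. The lists of structural wall proteins, gibberellin and brassinosteroid genes had 0 genes with a probe set of their own name. EXGT-A3, for which the RefSeq table gives XTH27 as another name, falls outside the rule and stood at 9.23 in AB, 9.08 in SIZ1 and 9.0 in SAB, against 9.07 in COL, with no call.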

How the data were processed

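The authors deposited log2 expression values, 1 per probe set and array. Per the submitters' processing notes they come from GCRMA, which removes background by probe sequence, normalizes and combines probes. The GCRMA version and whether the arrays were processed jointly are not given in the sources used. The log2 scale was read from the values. These values were used as they stand, without the 64 control probe sets. Gene names are those of the platform annotation, brought up to date with RefSeq symbols (TAIR10.1). Of the 22746, 13513 name 1 gene (13436 updated), 503 several, and 8730 are unnamed here.

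All 12 arrays were fitted, each genotype with its own term, in limma 3.58.1 in R 4.3.3 (lmFit, eBayes, 8 residual and 1.31 prior degrees of freedom), with two-sided tests adjusted over all probe sets. The fit was run on simulated data with noise independent between arrays, so that run does not cover the shared deviations of same-numbered arrays. Alternatives were quantile normalization, median centring, the brighter probe sets alone, the replicate block, fits to the compared genotypes alone, a trended robust prior, members by platform symbol and each array left out. Leaving out both AB arrays labelled with an age was added after seeing the data.

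Replicate numbers pair the samples: the 18 same-numbered pairs of arrays had deviations from genotype means that correlated at 0.102 to 0.451, with a median of -0.125 in the 36 other pairs. No 2 arrays held identical values, and the number of arrays limits the precision. Members, lists and comparisons were chosen with earlier results of these data known. Named individually were all called members, the uncalled members with the highest means or, above the median level, the widest range of genotype means, and up to 4 called genes per list; others, such as single dim members, were chosen after their values were seen.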

Additional observations from a re-analysis of the deposited data

How the results depend on the processing

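In SIZ1 against COL, 2 expansins were called, but 1 with quantile normalization, 0 in the fit to both genotypes alone and 1 without the AB arrays labelled with an age. In SAB against COL, the 1 expansin became 0 in the fit to both genotypes alone. In SAB against AB, the 2 expansins became 4 with the brighter probe sets alone, 5 with the replicate block, 0 in the fit to both genotypes alone and 0 without the AB arrays labelled with an age, which also left 0 of 2 XTH members. That last setting leaves AB with 1 array, assumed to vary like the other genotypes. In the pooled comparison it left 1 of 3 XTH members (XTH20) and 2 of 4 expansins (EXPA4 and EXPA9). With the brighter probe sets alone the XTH count in SIZ1 and in SAB against COL was 0, because XTH20 is not among them, and the median of the 6 bright expansins was 0.27 in SIZ1 and 0.35 in SAB against COL, 0.55 in SAB against AB, 0.49 pooled and -0.13 for the departure from the sum. XTH20 in SAB against COL was not called in the fit to both genotypes alone (limma adjusted p = 0.0588), and XTH19 was (0.0477).

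Leaving out 1 array at a time gave 0 to 3 expansins in SIZ1 against COL, 0 to 1 in SAB against COL and 0 to 3 in SAB against AB. It gave 1 to 3 XTH members in SAB against AB, and 1 to 3 XTH members and 2 to 4 expansins pooled. EXLB1 was called higher in SIZ1 against COL and pooled only without SIZ1 3 (limma adjusted p = 0.0203 and 0.0100), and XTH32 was called in SAB against AB without SIZ1 3 or SAB 1 (0.0383 and 0.0391) and with median centring, the brighter probe sets alone and the trended robust prior (0.0342, 0.0141 and 0.0327). In the same comparison EXPA9 was called without SIZ1 2 or SIZ1 3. The replicate block changed no call of a member beyond those given with the results. Of 552 pairs of a count or family median and an alternative, 509 kept the value within 1.5 times or within the spread between arrays. That spread was 0.22 for XTH and 0.12 for expansins, wide beside the family medians, so a median could hardly leave it. Counts of 0 that stayed 0 were kept too, as was every value by platform symbol, which uses the same fit and members. The share is thus no measure of how firm the results are. Members by platform symbol were the same 27. In the 24 pairs of a member and a comparison that were called under at least 1 setting, no difference changed sign. Sign changes in other pairs were not counted.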
